A study of Homo sapiens with 9 samples.

Results

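The 26S proteasome is the ATP-dependent protease that degrades ubiquitin-tagged proteins in the cytosol and nucleus. Its 20S core is a barrel of alpha and beta rings, and 3 of the beta subunits (PSMB5, PSMB6 and PSMB7) carry the cutting sites. The 19S cap binds the core, recognises ubiquitin chains, removes them and unfolds the substrate with a ring of ATPases. Interferon-inducible beta subunits (PSMB8, PSMB9 and PSMB10) replace the cutting subunits in the immunoproteasome, the alternative activators PSME1 to PSME4 can take the place of the cap, and POMP chaperones assembly of the core. Cancer cells depend on this machinery for protein turnover and for passage through the cell cycle.

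The mRNAs of these genes were measured in HCT116, a human cell line established from a colorectal carcinoma. Cells were reverse transfected with a non-targeting siRNA (control) or with 1 of 2 siRNAs designed against the long non-coding RNA SNHG5 (siRNA A and siRNA B). The labels give 25 nM of siRNA, and the study's methods state another concentration. Each group had 3 libraries of oligo-dT purified RNA, read from one end over 50 bases. The comparison asks how depletion of SNHG5 alters the transcriptome, and all groups were transfected cells of the same line. The labels do not say which of the study's siRNA sequences is A or B, nor whether a replicate is a separate culture. The study's methods speak of biological replicates. Without separate cultures, p-values would measure only the spread between these samples.

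Members were the genes listed under the proteasome parts, found by their Ensembl identifiers in the deposited table of 15354 genes. Of the 40 listed genes, 38 matched a row, and all 38 passed the filter of at least 1 CPM (reads scaled to the library total) in at least 3 of 9 libraries. PSMB3, a structural beta subunit, and PSMB8 were not analysed here. The libraries held 15566530 to 23277549 reads. Levels below are TMM-scaled CPM, that is CPM divided by a factor that brings the bulk of genes to the same level between libraries. Differences are on the scale of log2(TMM-scaled CPM + 1), which understates the change of genes near 1 CPM. They were tested with limma over 13893 genes, and a gene is called higher or lower where the Benjamini-Hochberg adjusted p was under 0.05.

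SNHG5 itself went against the labels. Its level was 31.3, 22.1 and 25.9 TMM-scaled CPM in control, 71.5, 58.8 and 67.3 under the label siRNA A, and 46.2, 50.3 and 46.1 under the label siRNA B. Both labelled groups lay above control, with log2 differences of 1.29 and 0.83 (limma, SE 0.13 and adjusted p = 1.86e-05 and 5.9e-04), and of 0.93 and 0.63 with library totals alone. Therefore, every direction given here is that of the libraries labelled siRNA A or siRNA B. Of 10 colon epithelial markers, 8 matched a row, with KRT8, KRT18, EPCAM, CDH1, VIL1 and CDX2 detected and KRT20 and CEACAM5 near 0. Of 10 markers of other cell types, 5 matched, and the highest, COL1A1, had a mean of 16.7 TMM-scaled CPM in control. The summed level of these 5 was 19.1 to 20.3 in control, 13.1 to 16.1 with siRNA A and 13.6 to 16.9 with siRNA B, with COL3A1 and ALB near 0. That of the 8 colon markers was 1332 to 1453, 2271 to 2868 and 1844 to 1877. Of 6 colon markers tested, KRT8 and KRT18 were higher and EPCAM and CDX2 lower with siRNA A, and KRT8 and VIL1 were higher and CDX2 lower with siRNA B. Of 3 markers of other cell types tested, CD68 was higher and COL1A1 and ACTA2 lower with siRNA A. With siRNA B, ACTA2 was higher and COL1A1 lower. The part of these shifts in the results on the proteasome was not tested.

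In the libraries labelled siRNA A, most proteasome mRNAs were above control after TMM scaling. Of the 38 members, 24 were higher than control and 4 were lower, against 23.9% and 27.6% of all tested genes. In the libraries labelled siRNA B, 6 were higher and 4 were lower, against 15.6% and 18.3%. The members had a median log2 difference of 0.50 (siRNA A) and 0.08 (siRNA B), and all tested genes one of −0.02 and 0.0043. PSMB9 and PSMB10 met the filter only with the control libraries counted. Without them, 3 members were lower with siRNA A, 2 with siRNA B and 1 with both. Both comparisons share the control libraries. 6 members were higher with both siRNAs (10.2% of all genes), 2 were lower with both (11.7%) and 1, PSMD14, changed in opposite directions (1.77%). The plot of log2 differences by subunit shows where the calls lay. With siRNA A, 11 of 13 constitutive core genes were higher and none was lower, and 11 of 18 cap genes were higher and 3 lower. With siRNA B, the counts were 2 and 0 in the core and 4 and 2 in the cap.

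**Figure D1:**
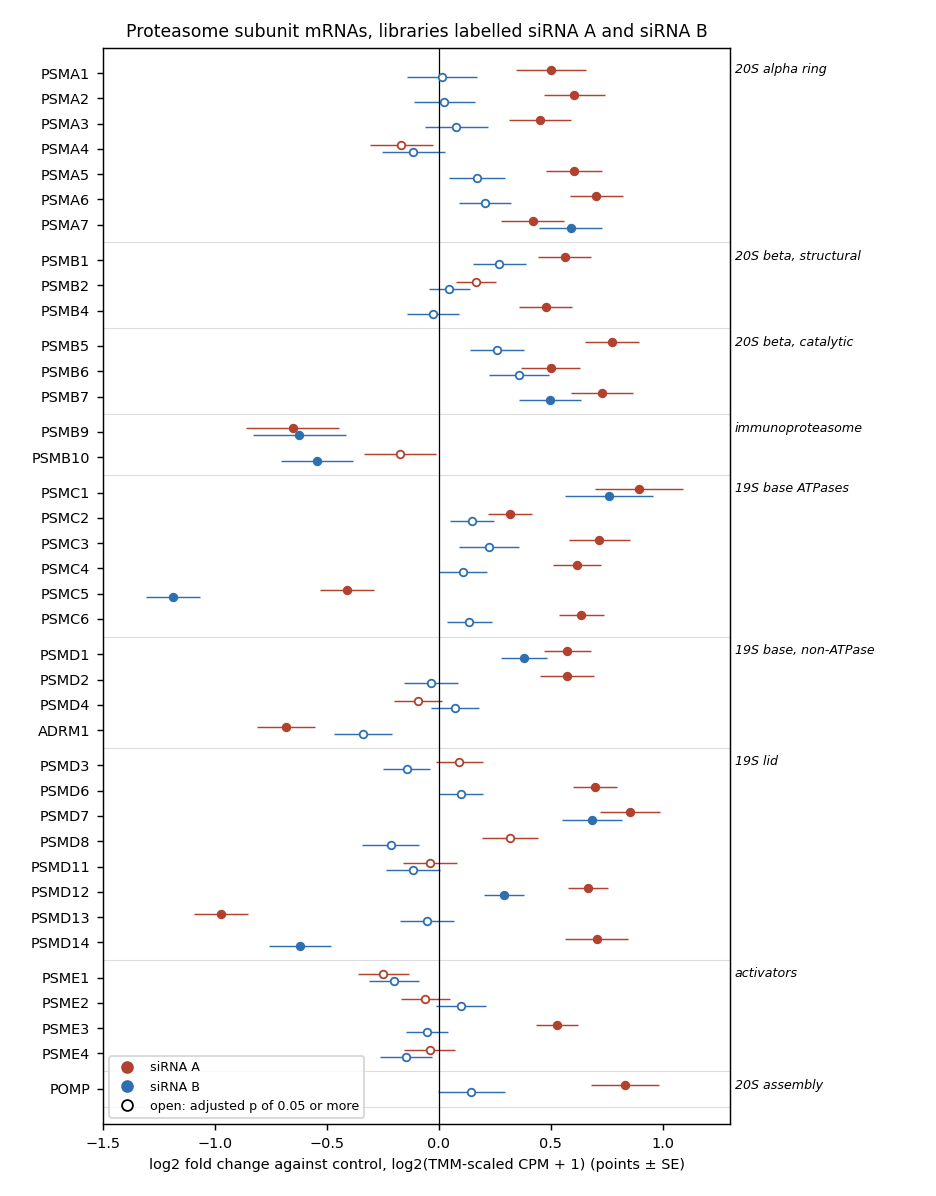
Log2 difference against control on the log2(TMM-scaled CPM + 1) scale (x axis) for each of 38 proteasome genes (y axis), for siRNA A in red and siRNA B in blue, with bars of 1 SE. Filled points have an adjusted p under 0.05. Most red points of the 20S and 19S genes lie right of 0. Of the 11 red points left of it, those of PSMC5, ADRM1, PSMD13 and PSMB9 are filled. PSMB9 and PSMB10 met the filter only through control, so their points are a description.

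These directions depend on the scaling. Summed over the 38 members, the deposited CPM came to 6315 ± 308 in control, 6311 ± 215 in siRNA A libraries and 5740 ± 722 in siRNA B libraries (SD, n = 3). After TMM scaling, the sums were 5524 ± 355, 7126 ± 277 and 5801 ± 557. The mean TMM factor of the 3 groups was 1.14, 0.886 and 0.988. With library totals alone, the median of all tested genes fell to −0.34 for siRNA A and −0.18 for siRNA B, and the members' medians were 0.14 and −0.13. On that scale, 8 members were higher and 10 lower with siRNA A (9.05% and 47.0% of all genes), and 2 were higher and 9 lower with siRNA B (6.9% and 29.7%). The median of the members thus stayed above that of all genes for both siRNAs under either scaling, narrowly for siRNA B. With TMM scaling, 11 of the 38 members were below 0 with siRNA A and 15 with siRNA B. The members' summed share of reads with siRNA A differed from control by less than the SD. The lowest sum of deposited CPM, 4907, was that of siRNA B 2. In bulk RNA, fewer cells of a kind and less RNA per cell cannot be told apart.

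**Figure D2:**
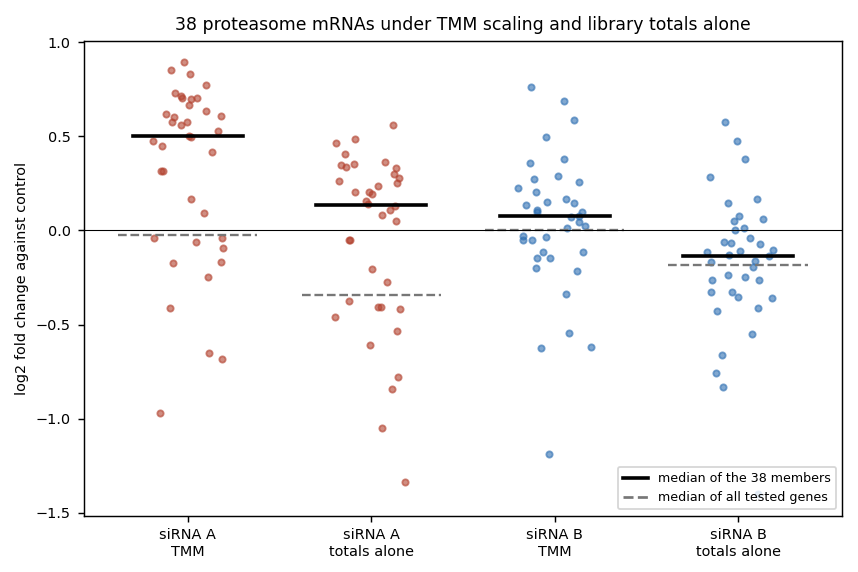
Log2 difference from control (y axis) of the 38 members as points, for siRNA A in red and siRNA B in blue, with TMM scaling and with library totals alone (x axis). Solid lines are the medians of the members and dashed lines those of all tested genes. For siRNA A the solid line moves from 0.50 to 0.14 and the dashed line from −0.02 to −0.34.

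In control libraries, levels were compared per kilobase of merged exons. The catalytic beta subunits had 80.4 to 93.0 TMM-scaled CPM per kilobase, and the structural ones 64.7 to 81.3. The alpha ring ranged from 1.25 for PSMA2 to 104 for PSMA7. In the 19S cap the range was 1.11 for PSMC1 to 89.5 for ADRM1. Activators ranged from 8.11 for PSME2 to 51.7 for PSME3, and POMP had 31.3. PSMB9 and PSMB10 had 0.501 and 0.819. The plot of control levels shows this gap between the constitutive catalytic subunits and the 2 immunoproteasome subunits. These values depend on the length used. Per kilobase of the longest transcript, 35 of the 38 members moved by more than their SD. The catalytic subunits then had 112 to 169, the structural ones 66.2 to 83.6, POMP 77.4, and PSMB9 and PSMB10 0.625 and 1.36. Low values among the other core and cap genes were those of PSMC1, PSMA2, PSMA6 and PSMC6 (3.75). PSMC1 has 13 named pseudogenes, PSME2 has 6, PSMA6 has 4 and PSMA2 has 3, with which reads can be shared. PSMC6, also low, has 0. The part of pseudogenes in the low values was not tested. In all, 15 of the 38 members have a named pseudogene, and the levels and changes of PSMC1, PSME2, PSMA6 and PSMA2 are uncertain.

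**Figure D3:**
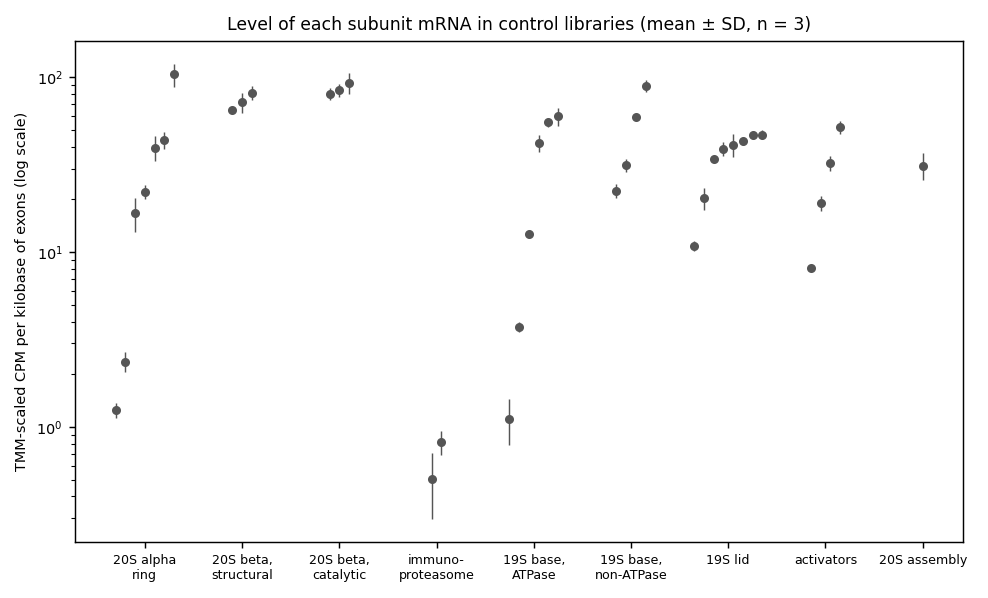
Mean level of each member in the 3 control libraries as TMM-scaled CPM per kilobase of merged exons (y axis, log scale), with bars of 1 SD, grouped by place in the particle (x axis) and ordered by level. The immunoproteasome points lie under 1, and the catalytic beta points between 80.4 and 93.0.

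Promoter sequence is shown next because most of these genes moved together in one comparison while a few did not. RefSeq start sites of 35 of the 40 listed genes had 300 bases of promoter on hand (250 before the start and 50 after it, assembly GRCh38.p14). PSMA7, PSMB1, PSMB6, PSMB7 and PSMD4 had no entry. The antioxidant response element core, to which NFE2L1 and NFE2L2 bind and through which proteasome genes are known to be induced, was searched as TGACNNNGC on both strands. The ETS core was searched as CCGGAAG on both strands. The 2 motifs share no fixed stretch, and both were chosen after the values were known. The first was in 12 of the 35 genes (34.3%), against 16.1% of 27305 genes with a promoter, and the second also in 12 (34.3%), against 12.2%. The following windows have the match in capitals and run 5′ to 3′ on the gene's strand. The first 4 hold the antioxidant response element core in 2 genes with lower levels (ADRM1 and PSMC5), 1 with higher levels (PSMD12) and 1 that was not called (PSMD3).
ADRM1: cgctcccctaTGACACAGCaacaataggg
PSMC5: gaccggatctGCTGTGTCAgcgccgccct
PSMD12: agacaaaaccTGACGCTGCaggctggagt
PSMD3: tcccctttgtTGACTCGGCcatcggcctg
The next 4 hold the ETS core in the 3 lid genes with the largest changes and in POMP.
PSMD14: actagtgaacCCGGAAGtgcttcgcgg
PSMD13: ccgctcggcgCCGGAAGtgagtgagca
PSMD7: ggctgacgaaCCGGAAGaagaggaact
POMP: gacggacgcaCTTCCGGcggatgtggg
By exact match, the windows lie in GRCh37 at chr20:60877805-60877833 (ADRM1, plus strand), chr17:61905014-61905042 (PSMC5, plus), chr17:65362840-65362868 (PSMD12, minus), chr17:38137013-38137041 (PSMD3, plus), chr2:162164922-162164948 (PSMD14, plus), chr11:236954-236980 (PSMD13, plus), chr16:74330700-74330726 (PSMD7, plus) and chr13:29233213-29233239 (POMP, plus). Both motifs occurred in genes that were higher and in genes that were lower, and the matches are a description of the sequence only. PSMC4 and PSMD1, higher with siRNA A, also hold the antioxidant response element core and are not shown. So do PSMA4, PSME1, PSME2 and PSME4, which were not called with either siRNA, and PSMB3, which was not analysed. PSMB9 holds it as well, but met the filter only through control, so its lower level is a description. PSMD12 holds both motifs. Among genes with the ETS core, only PSMD13 was lower with siRNA A, PSMD8 and PSME4 were not called, and the rest were higher. Of all 38 members, 24 were higher with siRNA A.

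The alpha ring of the core forms the gate through which substrates enter. With siRNA A, 6 of its 7 genes were higher, against 23.9% of all tested genes. They were PSMA6 (log2 difference 0.70), PSMA2 (0.61), PSMA5 (0.60), PSMA1 (0.50), PSMA3 (0.45) and PSMA7 (0.42). PSMA4 differed by −0.17 (limma, adjusted p = 0.341). With siRNA B, only PSMA7 of the 7 was called, and PSMA1, PSMA2, PSMA3, PSMA4, PSMA5 and PSMA6 differed by 0.02, 0.02, 0.08, −0.11, 0.17 and 0.20. PSMA7 (ENSG00000101182.10) had 213, 159 and 175 TMM-scaled CPM in control, 268, 240.0 and 220.3 with siRNA A, and 281, 229 and 314 with siRNA B. Both siRNA groups lay above all control libraries, by 0.42 with siRNA A and 0.59 with siRNA B (limma, SE 0.14 and adjusted p = 0.0274 and 0.00788). With library totals alone, neither PSMA7 difference passed the test (0.05 and 0.38, limma, adjusted p = 0.784 and 0.0611). PSMA1, PSMA2, PSMA3 and PSMA5 also lost the siRNA A call on that scale, and PSMA4 was called lower with siRNA A. Some siRNA A calls of the ring also rested on single libraries. The adjusted p of PSMA1 was 0.0662, 0.0858 and 0.0636 without control 2, control 3 and siRNA A 1, that of PSMA3 was 0.0595, 0.0687 and 0.0664, and that of PSMA7 was 0.109, 0.0814 and 0.0987, with 0.055 without siRNA A 2 (limma).

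Structural beta subunits close the inner rings. PSMB1 and PSMB4 were higher with siRNA A by 0.56 and 0.48 (limma, SE 0.12 and adjusted p = 0.00226 and 0.00517), and PSMB2 differed by 0.17 (adjusted p = 0.149). None of the 3 was called with siRNA B, where PSMB1, PSMB2 and PSMB4 differed by 0.27, 0.05 and −0.03. Without control 1 or siRNA B 2, PSMB1 was called higher with siRNA B (limma, adjusted p = 0.0484 and 0.0386). The siRNA A calls of PSMB1 and PSMB4 were lost with library totals alone.

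All 3 catalytic beta subunits were higher with siRNA A, against 23.9% of all tested genes. PSMB5 (ENSG00000100804.14, chr14:23485752-23504439), which carries the chymotrypsin-like site that bortezomib blocks, had 136, 117 and 120.1 TMM-scaled CPM in control, 219, 232 and 189 with siRNA A, and 158, 128 and 163 with siRNA B. The siRNA A libraries lay above all others, and those of siRNA B overlapped control. The log2 difference was 0.77 with siRNA A (limma, SE 0.12 and adjusted p = 3.21e-04), and with siRNA B it was 0.26 (adjusted p = 0.122, and 0.032 without siRNA B 2). PSMB7 bears the trypsin-like site, with 193, 148 and 158 in control, 293, 280.4 and 252 with siRNA A, and 251, 194 and 262 with siRNA B. It was higher in both, by 0.73 and 0.50 (limma, SE 0.14 and adjusted p = 0.00103 and 0.0158), with no overlap with control. PSMB6 bears the caspase-like site, with 133, 111 and 121 in control, 183, 190.2 and 146 with siRNA A, and 159, 134 and 178 with siRNA B. With siRNA A it rose by 0.50 (limma, SE 0.13 and adjusted p = 0.00851). With siRNA B its lowest library was just above the highest control library, and the difference of 0.36 did not pass the test (adjusted p = 0.057). It did pass without control 1, siRNA A 3 or siRNA B 2 (0.0494, 0.0434 and 0.0206). The siRNA B call of PSMB7 was lost without control 2 (adjusted p = 0.0739), control 3 (0.0573), siRNA B 1 (0.0669) or siRNA B 3 (0.0595), and with library totals alone (0.145). PSMB6 lost its siRNA A call with library totals alone.

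The immunoproteasome subunits were near the filter. At least 1 CPM was reached by PSMB9 in the 3 control libraries only, and by PSMB10 in these and in 1 siRNA A library. PSMB9, which lies beside TAP1 in the class II region of the major histocompatibility complex, had 2.23, 1.87 and 0.917 TMM-scaled CPM in control, 0.957, 0.378 and 0.697 with siRNA A, and 0.537, 0.646 and 0.921 with siRNA B. These values came from 5 to 56 reads a library, and the lowest control library overlapped both siRNA groups. The log2 difference was −0.65 and −0.62 (SE 0.21). PSMB10 had 1.56, 1.13 and 1.31 in control, 0.798, 1.36 and 1.07 with siRNA A, and 0.492, 0.452 and 0.877 with siRNA B, from 7 to 39 reads a library. The siRNA B libraries lay under the control libraries, and those of siRNA A overlapped them (log2 difference −0.54 and −0.17, SE 0.16). Since the filter was met through control, these differences are given as a description, with no test. PSMB9 also shares its interval with PSMB8-AS1 on the same strand and with PSMB8 and TAP1 on the other.

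The 6 ATPases of the 19S base form the unfolding ring. With siRNA A, 5 were higher, against 23.9% of all tested genes: PSMC1 (0.89), PSMC3 (0.72), PSMC6 (0.64), PSMC4 (0.62) and PSMC2 (0.32). The sixth, PSMC5, was lower. With siRNA B, PSMC1 was higher by 0.76, PSMC5 was lower, and PSMC2, PSMC3, PSMC4 and PSMC6 differed by 0.15, 0.22, 0.11 and 0.14. PSMC3 alone of these 4 passed the test once siRNA B 2 was left out (limma, adjusted p = 0.0406). PSMC1 had 8.65, 4.69 and 7.12 TMM-scaled CPM in control, 13.3, 13.98 and 12.3 with siRNA A, and 10.5, 10.5 and 15.4 with siRNA B, with no overlap with control (limma, SE 0.20 and adjusted p = 0.00273 and 0.0113). The siRNA A difference of PSMC2 was the only member call that changed sign with library totals alone (−0.05, limma, adjusted p = 0.728), and it was lost without control 2 or siRNA A 1 (0.0655 and 0.0527). PSMC3, PSMC4 and PSMC6 also lost the siRNA A call with library totals alone.

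PSMC5 (ENSG00000087191.8, chr17:61904512-61909386), also called RPT6, had the largest fall of any member with siRNA B. It had 196, 158 and 185 TMM-scaled CPM in control, 139, 136 and 129 with siRNA A, and 85.6, 65.8 and 84.1 with siRNA B. The 3 groups did not overlap, with control highest and siRNA B lowest. The mean was 2.29-fold lower than control with siRNA B and 1.34-fold lower with siRNA A. The log2 difference was −1.19 with siRNA B and −0.41 with siRNA A (limma, SE 0.12 and adjusted p = 4.17e-05 and 0.0139), and without control 1 the latter had an adjusted p of 0.0505. The direct comparison of siRNA A with siRNA B gave 0.78 (limma, SE 0.12 and adjusted p = 5.5e-04). PSMC5 thus moved against the other 5 ATPases with siRNA A under TMM scaling. FTSJ3 overlaps it on the other strand, and whether the authors' counting used strand is not given in the sources used here.

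Among the other base subunits, PSMD1 and PSMD2 are the scaffolds and PSMD4 and ADRM1 (RPN13) the ubiquitin receptors. PSMD1 rose with both siRNAs, by 0.57 and 0.38 (limma, SE 0.10 and adjusted p = 8.19e-04 and 0.0153). Its siRNA B call did not hold without control 2, siRNA B 1 or siRNA B 3 (adjusted p = 0.0739, 0.0531 and 0.0596) and with library totals alone (0.248). PSMD2 had 288, 306 and 291 TMM-scaled CPM in control, 393, 533 and 404 with siRNA A, and 295, 271 and 297 with siRNA B. With siRNA A it rose by 0.57 (limma, SE 0.12 and adjusted p = 0.00205), and siRNA B overlapped control (−0.04, adjusted p = 0.841). With library totals alone, PSMD1 and PSMD2 also lost the siRNA A call.

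The receptors did not follow the scaffolds. ADRM1 (ENSG00000130706.8, chr20:60877149-60883918) had 206, 175 and 195 TMM-scaled CPM in control, 129.7, 129 and 100.3 with siRNA A, and 159, 131 and 166 with siRNA B. All siRNA libraries lay under the control libraries. The fall passed the test with siRNA A (−0.68, limma, SE 0.13 and adjusted p = 0.00108). With siRNA B the difference was −0.34 (adjusted p = 0.0637), which passed without siRNA A 3 (0.0437) and with library totals alone (−0.55, adjusted p = 0.00591). PSMD4 had 102, 86.0 and 96.4 in control, 99.0, 83.9 and 83.5 with siRNA A, and 102, 92.0 and 105 with siRNA B. The 3 groups overlapped (−0.09 and 0.07, limma, SE 0.11 and adjusted p = 0.494 and 0.634). PSMD4 was lower with siRNA A under library totals alone (−0.46, limma, adjusted p = 0.00542).

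The lid holds the deubiquitinase of the particle. With siRNA A, 4 of its 8 genes were higher (PSMD7, PSMD14, PSMD6 and PSMD12) and 1 was lower (PSMD13), against 23.9% and 27.6% of all tested genes. With siRNA B, 2 were higher (PSMD7 and PSMD12) and 1 was lower (PSMD14), against 15.6% and 18.3%. PSMD6 differed by 0.70 and 0.10, PSMD12 by 0.67 and 0.29, PSMD8 by 0.32 and −0.22, PSMD3 by 0.09 and −0.14, and PSMD11 by −0.04 and −0.12 with siRNA A and siRNA B. The siRNA A difference of PSMD8 was just outside the threshold (limma, adjusted p = 0.0531) and passed it in the paired fit with the replicate block (0.025) and without control 1, siRNA A 3, siRNA B 2 or siRNA B 3 (0.049, 0.05, 0.0185 and 0.0477). The siRNA B call of PSMD12 (limma, adjusted p = 0.0273) was lost without any 1 of control 1, control 2, siRNA B 1, siRNA B 2 and siRNA B 3 (0.0675, 0.116, 0.074, 0.0521 and 0.0699) and with library totals alone (0.576). On that scale, PSMD11 was called lower with siRNA A, and PSMD3 and PSMD8 were called lower with siRNA B.

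PSMD14 (RPN11, ENSG00000115233.7, chr2:162164936-162268228) is the metalloprotease that cuts ubiquitin chains off the substrate. It had 173, 131 and 144 TMM-scaled CPM in control, 255, 228 and 246 with siRNA A, and 99.0, 79.3 and 114 with siRNA B. The 3 groups did not overlap, with siRNA A highest and siRNA B lowest. The log2 difference was 0.70 with siRNA A and −0.62 with siRNA B (limma, SE 0.14 and adjusted p = 0.00146 and 0.00546). Between siRNA A and siRNA B it was 1.32 (limma, adjusted p = 5.75e-05), a 2.5-fold difference of means and the largest of any member. With library totals alone, the siRNA A difference was 0.34 and did not pass the test (limma, adjusted p = 0.0715), while that of siRNA B was −0.83 (adjusted p = 9.05e-04).

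PSMD13 (RPN9, ENSG00000185627.13, chr11:236966-252984), a scaffold subunit of the lid, was lower in one group only. It had 187, 157 and 166 TMM-scaled CPM in control, 87.3, 83.7 and 87.2 with siRNA A, and 174, 136 and 185 with siRNA B. siRNA A lay under both other groups, which overlapped, with a mean 1.98-fold lower than control. The log2 difference was −0.97 with siRNA A and −0.05 with siRNA B (limma, SE 0.12 and adjusted p = 6.95e-05 and 0.771). It was the only member called lower with siRNA A than with siRNA B (−0.92, limma, adjusted p = 1.93e-04).

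PSMD7 (RPN8, ENSG00000103035.5, chr16:74330712-74340186), the partner of PSMD14 in its catalytic dimer, was higher with both siRNAs. It had 124, 91.8 and 118 TMM-scaled CPM in control, 214, 192 and 195 with siRNA A, and 190.3, 151 and 196 with siRNA B. Both groups lay above control, by 0.85 and 0.68 (limma, SE 0.13 and adjusted p = 3.26e-04 and 0.00246). Thus, the partners of the dimer moved in the same direction with siRNA A and in opposite directions with siRNA B. On library totals alone, PSMD7 and PSMC1 remained called for both siRNAs (PSMD7 0.49 and 0.47, limma, adjusted p = 0.01 and 0.0185).

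**Figure D4:**
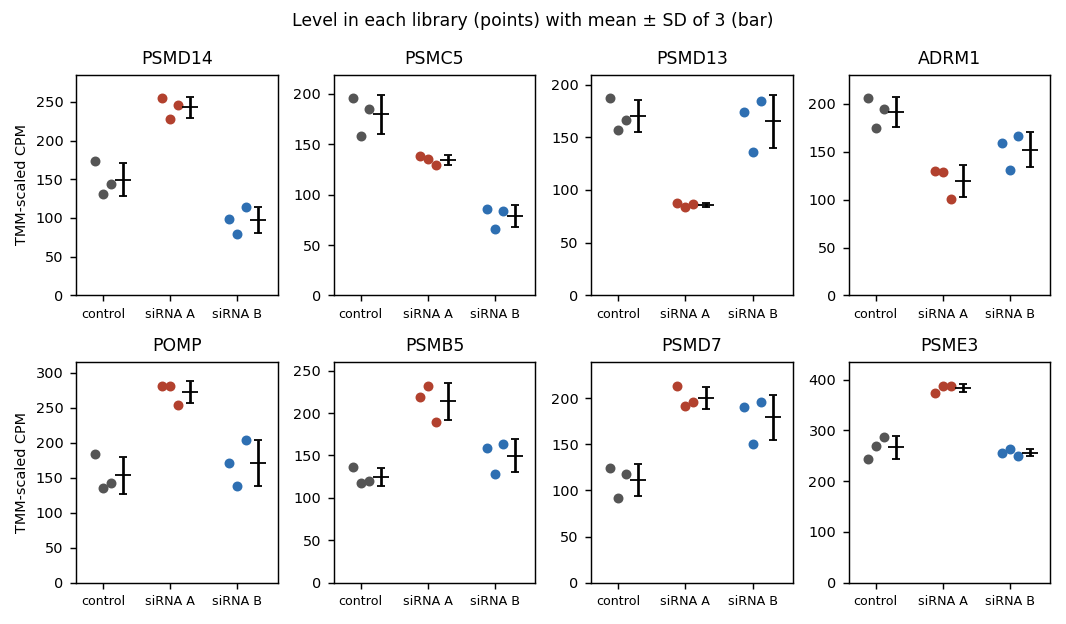
Level in each library (points, y axis in TMM-scaled CPM) with the mean and 1 SD of the 3 libraries (bars) for 8 members, by group (x axis). PSMD14 is highest with siRNA A and lowest with siRNA B, PSMC5 is lowest with siRNA B, and PSMD13 is lower only with siRNA A.

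Of the alternative activators, only PSME3 was called. PSME3 (PA28 gamma, ENSG00000131467.5, chr17:40976402-40995777), the nuclear activator, had 243, 269 and 287 TMM-scaled CPM in control, 374, 387 and 388 with siRNA A, and 256, 263 and 250.1 with siRNA B. With siRNA A it rose by 0.53 (limma, SE 0.09 and adjusted p = 7.21e-04), with no overlap, and siRNA B lay within the range of control (−0.05, adjusted p = 0.702). On library totals alone the siRNA A difference was 0.16 (limma, adjusted p = 0.209). PSME1 and PSME2 encode the interferon-inducible PA28 alpha and beta. PSME1 had 62.4, 57.8 and 51.4 in control, 49.7, 51.1 and 43.2 with siRNA A, and 51.0, 45.1 and 52.6 with siRNA B (−0.25 and −0.20, limma, SE 0.11 and adjusted p = 0.084 and 0.189). PSME2 had 29.6, 29.7 and 27.9 in control, 30.0, 29.6 and 24.2 with siRNA A, and 29.5, 33.2 and 30.8 with siRNA B (−0.06 and 0.10, adjusted p = 0.67 and 0.526). PSME4 (PA200) is the large nuclear activator. It had 177, 215 and 205 in control, 167, 204 and 209 with siRNA A, and 178, 191 and 169 with siRNA B (−0.04 and −0.15, SE 0.12, adjusted p = 0.783 and 0.361). PSME1 and PSME4 were lower with both siRNAs, and PSME2 with siRNA A, under library totals alone.

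POMP (ENSG00000132963.7, chr13:29233202-29253096), which guides the half-core to dimerise and is then degraded, had 184, 135 and 142 TMM-scaled CPM in control, 282, 281 and 255 with siRNA A, and 171, 138 and 203 with siRNA B. The siRNA A libraries lay above all others, while siRNA B overlapped control. POMP rose by 0.83 with siRNA A (limma, SE 0.15 and adjusted p = 7.97e-04) and differed by 0.14 with siRNA B (adjusted p = 0.492). With library totals alone, the siRNA A difference was 0.46 (limma, adjusted p = 0.0211).

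Compared directly, 17 members were higher with siRNA A than with siRNA B and 1 was lower, against 17.6% and 19.5% of all tested genes. The median difference was 0.33, and that of all genes −0.01. Among the higher members, the largest differences after PSMD14 and PSMC5 were those of POMP (0.69) and PSMD2 (0.61) (limma, SE 0.15 and 0.12 and adjusted p = 0.00441 and 0.00244). The calls fell in the alpha ring (4 of 7), the ATPases (4 of 6), the lid (4 higher and 1 lower of 8), PSMB4, PSMB5, PSMD2, PSME3 and POMP. PSMA1 and PSMA5 lost the call without siRNA A 1 (limma, adjusted p = 0.0919 and 0.0612) and without siRNA B 2 (0.0905 and 0.0505), and PSMA1 also without siRNA A 2, siRNA A 3 or siRNA B 1 (0.0507, 0.055 and 0.0506). ADRM1 (−0.34) and PSMA3 (0.37) were just outside the threshold (limma, adjusted p = 0.0549 and 0.0544). ADRM1 passed it without siRNA B 2 (0.0202), and PSMA3 without control 1 or siRNA B 3 (0.0399 and 0.0423). Among the 6 members higher with both siRNAs (PSMA7, PSMB7, PSMC1, PSMD1, PSMD7 and PSMD12), only PSMD12 differed between them past the threshold (0.37, limma, adjusted p = 0.0074). With library totals alone, PSMD12 lost this call, as did PSMA1, PSMA5 and PSMC3.

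Genes that build, serve or regulate the particle were counted in the same way, and their counts are read beside the shares of all tested genes (23.9% higher and 27.6% lower with siRNA A, and 15.6% and 18.3% with siRNA B). Of 8 other assembly chaperones, 2 were higher with siRNA A, PSMD10 (0.58) and PSMG2 (0.36), and 2 were lower, PSMG4 (−0.82) and PAAF1 (−0.51). PSMG4 and PAAF1, which chaperone the core and the base, were also lower with siRNA B (−0.54 and −0.75). Of 11 associated factors, 6 were higher with siRNA A and 4 with siRNA B, and none was lower. ZFAND5, an activator that binds the particle, differed by 1.14 and 0.44, TXNL1, a thioredoxin of the cap, by 0.75 and 0.60, and the deubiquitinase USP14 was higher with siRNA A by 0.58. ZFAND2A was higher with both (0.46 and 0.56). The median difference of these factors was 0.40 with siRNA A and 0.31 with siRNA B, and 0.03 and 0.10 with library totals alone.

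Of 6 genes that control proteasome transcription, 1 was higher and 1 lower with siRNA A (against 23.9% and 27.6% of all genes), and 2 were higher and 2 lower with siRNA B (against 15.6% and 18.3%). NFE2L1, the factor that raises proteasome genes when the particle is impaired, differed by 0.17 and 0.18 (limma, adjusted p = 0.151 and 0.161). NFE2L2 was higher by 0.98 and 0.80 (adjusted p = 5.67e-05 and 4.19e-04). DDI2, the protease that activates NFE2L1, was lower with both (−0.34 and −0.41). NGLY1, a glycanase that also acts on NFE2L1, was lower with siRNA B (−0.92, adjusted p = 4.96e-05). SYVN1, a ubiquitin ligase of the endoplasmic reticulum, was higher with siRNA B by 0.41.

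Ubiquitin supply and delivery genes were mostly higher with siRNA A. With it, 12 of 14 were higher and 1 was lower (against 23.9% and 27.6% of all genes), and with siRNA B, 5 were higher and 1 was lower (15.6% and 18.3%). With siRNA A, RPS27A, which encodes ubiquitin fused to a ribosomal protein, was higher by 1.40, and the shuttle receptor RAD23B by 1.17. With siRNA B, the polyubiquitin gene UBB was higher by 0.78 and RAD23B by 0.59. NPLOC4, a cofactor of VCP, was lower with both (−0.49 and −0.53). RPS27A has 19 named pseudogenes, so its values are uncertain. The list's median was 0.50 and 0.25, and 0.14 and 0.04 with library totals alone.

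Of 12 interferon and antigen processing genes tested, the set with which the immunoproteasome subunits are induced, 1 was higher and 6 were lower with siRNA A (23.9% and 27.6% of all genes), and 1 was higher and 4 were lower with siRNA B (15.6% and 18.3%). Both lower counts include IFIT3, which met the filter only through control and is given as a description (−0.86 and −0.72). NLRC5, the transactivator of class I genes, was lower with both (−1.08 and −0.76), as was ERAP2 (−0.80 and −0.60). TAP2 was lower with siRNA B (−0.66). B2M was the gene that was higher, by 0.47 and 0.56. NLRC5, IFIT3 and ERAP2 had control means of 3.51, 1.45 and 3.29 TMM-scaled CPM, near those of PSMB9 (1.67) and PSMB10 (1.33).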

How the data were processed

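RNA was measured by single-end sequencing in 9 HCT116 libraries, 3 a group. Per the labels, the submitters' processing notes name TopHat2, HTSeq and GRCh37 (hg19). The annotation, the filters and the use of strand are not given in the sources used here. The deposited values are CPM in a table of 15354 genes. All CPM values were whole multiples of 1 read (tolerance 0.01), so reads were recovered for the count tests.

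A gene was kept if 3 or more of 9 libraries had 1 CPM or more (13893 genes, 90.5%). CPM were divided by TMM factors (edgeR 4.0.16), log2(CPM + 1) was taken, and limma 3.58.1 with a variance trend was fitted over all 9 libraries with Benjamini-Hochberg adjustment. The fit was also run on simulated reads in which a small set of genes changed in siRNA A. That simulation held no shift of scaling between groups like the one seen here, so it does not bear on the choice of scaling. No replicate pair agreed within counting noise (chi-square over its degrees of freedom 13.0 or more). Alternatives were library totals alone, median-of-ratios scaling, a pseudocount of 0.1, no filter, edgeR, DESeq2 1.42.0, a replicate block and leaving out each library. Deviations of libraries with the same number correlated between control and siRNA A (r = 0.65, 0.41 and 0.13). Those with different numbers gave −0.54 to 0.094, so the data show these as possible pairs. The values were 0.17, 0.44 and −0.39 between control and siRNA B, where different numbers reached 0.68. Between siRNA A and siRNA B they were 0.20, 0.44 and 0.02, and different numbers reached 0.59. The main fit used no pairs, so its p-values ignore any pairing. The replicate block joined all 3 groups by number.

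Gene names, lengths and overlaps came from GENCODE (GRCh37) and promoters from RefSeq. Of the 38 members, 10 overlap a gene on the same strand, 18 one on the other strand (some both) and 16 neither. Every member is named with its differences, and values in every library are given for the catalytic and immunoproteasome subunits, the ubiquitin receptors, PSMD14, the activators, POMP, the 4 called members with the largest change in each direction per comparison, and members called in opposite directions. Other lists have at most 3 called genes per direction. The members and lists were chosen with earlier results of these data known.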

Additional observations from a re-analysis of the deposited data

How the results depend on the processing

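Scaling changed the member counts most. With library totals alone, 8 members were higher and 10 lower with siRNA A, and 2 higher and 9 lower with siRNA B. Between the siRNAs, 13 were higher and 2 lower with siRNA A than with siRNA B. Under that setting PSMC2 with siRNA A reversed in sign, from a log2 difference of 0.32 to −0.0485. The 8 higher members with siRNA A were among the 24 called with TMM scaling. A pseudocount of 0.1, no filter and edgeR on the recovered reads gave the same member counts as reported, median-of-ratios scaling gave 25, 4, 6, 4, 18 and 1, and DESeq2 gave 26, 4, 7, 4, 19 and 1 (higher and lower with siRNA A, with siRNA B, and with siRNA A against siRNA B). In the paired fit with the replicate block, the counts were 25, 4, 8, 5, 19 and 2, the additions being PSMD8 with siRNA A, PSMB1, PSMB6 and ADRM1 with siRNA B, and PSMA3, PSMB1 and ADRM1 between the siRNAs. The block lost no call. Leaving out 1 library gave 20 to 25 higher and 2 to 4 lower with siRNA A, 3 to 9 higher and 2 to 4 lower with siRNA B, and 15 to 18 higher and 1 to 2 lower between the siRNAs. The count of 3 higher with siRNA B came without control 2, siRNA B 1 or siRNA B 3. That of 2 lower came without control 1 for siRNA A, where PSMB9 and PSMC5 were lost. For siRNA B it came without control 1, siRNA B 1 or siRNA B 2, and PSMB9 and PSMB10 were lost each time. These 2 genes met the filter only through control, so their calls are no test. PSMC5 and PSMD14 kept the siRNA B call in these fits. Between the siRNAs, the count of 2 lower came without siRNA B 2. The cause of these shifts was not tested. Depth limits PSMB9 and PSMB10, with 5 to 56 reads a library.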
